A study of Homo sapiens with 8 samples.

Results

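The 42 genes described here encode the machinery of mitosis: the kinase and cyclins that start it, the spindle, the kinetochores, the checkpoint that watches them, and the complexes that condense and separate chromosomes. They were taken from a list of mitotic spindle and kinetochore genes, and each was represented by the probe set of its symbol alone that had the highest mean over the arrays. All 42 had such a probe set, of 11963 genes with a value. They fall into 10 roles, and 25 of the 42 had 1 such probe set. AURKB and CDC20 were singled out with their values known, so their rise in the clones is a description of these arrays and not independent evidence.

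The study asked what happens to gene expression in cancer cells when CD24, a small glycosylated surface protein, is silenced by short hairpin RNA (shRNA) or bound by a monoclonal antibody. Transcripts were measured on 8 Affymetrix GeneChip arrays, 6 of HT29, an established human colorectal cancer line, and 2 of Colo357, an established human pancreatic cancer line. HT29 and Colo357 were each profiled untreated and after 72 h with the SWA11 anti-CD24 antibody at a dilution of 1:40, with 1 array per condition. The other 4 arrays were HT29-derived clones: 1 with a vector for a GFP-directed shRNA (the GFP clone), 1 with a vector for a CD24-directed shRNA (c.833) and 2 with 2 such vectors (c.G and c.E). Every clone is the progeny of selected HT29 cells and was measured once, so a clone's own history and its vector cannot be told apart. The untreated lines were the controls for the antibody, and no array of a control antibody was used here.

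Cells that enter mitosis activate cyclin-dependent kinase 1 with cyclin B, build a bipolar spindle, attach each chromosome through its kinetochore and hold at the spindle checkpoint until all are attached. The anaphase-promoting complex with CDC20 then marks securin and cyclin B for destruction, and chromosomes separate. Most of these genes are transcribed in one late wave of the cell cycle, driven by the B-MYB, FOXM1 and MuvB proteins and repressed in resting cells by the DREAM complex. That wave acts through a promoter element called the CHR, often next to CCAAT boxes bound by NF-Y. Cancer lines in culture usually express these genes strongly, and their level in a bulk sample is widely used as a readout of proliferation.

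The deposited intensities are linear MAS5 signals. All 8 arrays had the same trimmed mean of 250.1 (2% off either end), and the median probe set lay between 32.4 in clone c.G and 63.1 in the GFP clone. At its brightest probe set CD24 itself read 6425 in parental cells, 7363 in the GFP clone, but 558 in c.833, 172 in c.G and 596 in c.E. The median of the 42 genes lay between 238 in clone c.G and 853 in untreated Colo357, above the median probe set of every array. A bacterial control sequence, the dap 3′ probe set, read 275 to 277 on the untreated and GFP arrays and 406 to 923 on the antibody and CD24 shRNA arrays. It thus moved with the groups compared below, and its part in those comparisons was not tested. The 3′ to 5′ ratio of ACTB, a sign of RNA integrity, was 1.06 to 1.17 on 7 arrays and 1.78 in clone c.G. HT29 carried the colonic markers LGALS4 (4582), KRT20 (1117) and VIL1 (439), although VIL1 was higher in untreated Colo357 (1123.5). In untreated HT29, CDX1, CDX2, CDH17 and FABP1 read 3.2 to 11.0 and GPA33 26.4, below that array's median of 44. Colo357 carried KRT7 (5468), KRT19 (7692) and MUC1 (1815), while PDX1 and ONECUT1 read 14.6 and 12.1. KRT19 was bright in HT29 too, at 3780 untreated and 7956 with the antibody. CFTR and SOX9, also on the pancreatic list, were higher in untreated HT29 (167 and 1362) than in untreated Colo357 (1.5 and 394). Markers of stroma, leukocytes and endothelium summed to at most 244, 112 and 116 on any array.

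The promoters of 35 of the 42 genes were in the RefSeq promoter table of GRCh38.p14, which gives 250 bases before to 50 after each start. The CHR was searched as TTTGAA or TTCGAA and the CCAAT box as CCAAT, each on both strands. Neither motif contains the other, and matches that overlap were counted separately. A CHR was found in 27 of the 35 genes (77.1%), in 17.2% of the 9563 genes with both a value and an entry, and in 4 of 41 genes of DNA replication and the G1/S transition (9.76%). In the 60 bases before the start, a window chosen after the positions were seen, 19 of the 35 had one (54.3%), against 3.46% and 2.44%. CCAAT was found in 28 of the 35 (80%), against 44.2% and 48.8%. A match in these letters is a description of the sequence and not a bound site.

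The 140 bases before the start are shown for AURKB and CDC20, which were higher in all CD24 shRNA clones than in both controls, and for HMMR, ASPM, KIF11 and TOP2A, which were lower. Capitals mark every CHR and CCAAT box, read 5′ to 3′ along the gene; ATTGG and TTCAAA are the same motifs on the other strand.
AURKB (chr17:8210226-8210365, - strand): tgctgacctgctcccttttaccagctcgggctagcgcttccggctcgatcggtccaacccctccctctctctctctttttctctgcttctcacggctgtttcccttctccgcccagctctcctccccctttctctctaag
CDC20 (chr1:43358841-43358980, + strand): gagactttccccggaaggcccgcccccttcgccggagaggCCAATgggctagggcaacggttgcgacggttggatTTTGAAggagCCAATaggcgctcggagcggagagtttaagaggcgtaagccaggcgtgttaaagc
HMMR (chr5:163460492-163460631, + strand): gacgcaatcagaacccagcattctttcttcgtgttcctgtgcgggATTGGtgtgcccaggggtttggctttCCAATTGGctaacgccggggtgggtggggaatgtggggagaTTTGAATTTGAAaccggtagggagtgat
ASPM (chr1:197146670-197146809, - strand): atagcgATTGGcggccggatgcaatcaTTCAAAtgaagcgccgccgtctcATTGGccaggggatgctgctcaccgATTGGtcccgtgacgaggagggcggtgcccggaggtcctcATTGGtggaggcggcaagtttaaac
KIF11 (chr10:92592990-92593129, + strand): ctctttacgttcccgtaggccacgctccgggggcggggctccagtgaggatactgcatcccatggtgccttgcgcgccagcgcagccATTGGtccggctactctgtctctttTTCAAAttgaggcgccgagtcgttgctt
TOP2A (chr17:40417897-40418036, - strand): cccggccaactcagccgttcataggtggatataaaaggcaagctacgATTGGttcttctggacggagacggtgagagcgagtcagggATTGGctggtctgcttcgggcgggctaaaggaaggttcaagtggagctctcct

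AURKB had neither motif in the stretch shown, which says only that these letters are not in this window. A CCAAT box begins at -153 from the start used for it, just outside the stretch, and at -129 from the other listed start of AURKB. CDC20 had a CHR beginning 65 bases before its start, between CCAAT boxes at 100 and 55 bases. HMMR had a pair of adjacent CHR elements at 28 and 22 bases, and KIF11 one at 28 bases. ASPM had a CHR further out, at 113 bases, among 4 CCAAT boxes, and TOP2A had CCAAT boxes alone in the stretch shown, with 2 CHR elements farther from its start. Members with a CHR close to the start did not stand lower than the other members with a promoter entry in the antibody comparison or in the CD24 shRNA clones. Their median log2 difference was -0.65 against -0.82 with the antibody and -0.40 against -1.13 in the CD24 shRNA clones, given here as a description. Over the 4 clones against the parental line their median was the slightly lower one, at -1.13.

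On the log2(intensity + 10) scale used for all differences, the untreated arrays stood highest for most of the 42 genes. Untreated Colo357 was the highest of the 8 arrays for 19 genes and untreated HT29 for 9, while clone c.833 was the lowest for 12, the GFP clone for 11 and clone c.G for 10. Among the 6 HT29 arrays, the parental line was the highest for 23 genes and the lowest for none. Clone c.E was neither the highest nor the lowest of the 8 arrays for any gene.

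**Figure D1:**
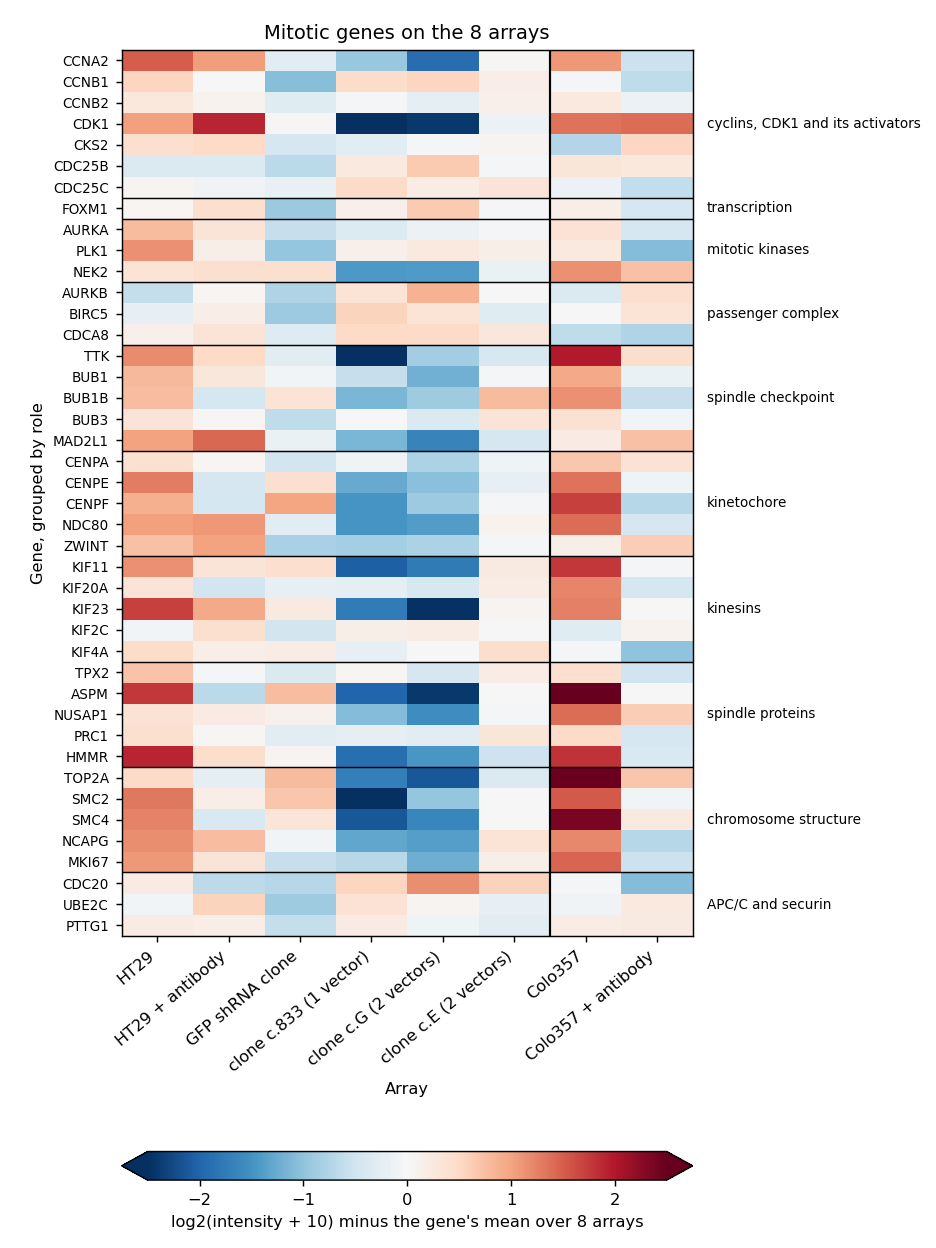
Heat map of the 42 genes, grouped by role (rows), on the 8 arrays (columns); colour is the log2(intensity + 10) of a gene minus its mean over the 8 arrays, red above and blue below, cut at the ends of the scale. ASPM, HMMR, KIF11, KIF23, SMC4 and TOP2A are blue in clones c.833 and c.G, where AURKB and CDC20 are red.

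After the antibody, most of the mitotic transcripts read lower in both lines, with medians of -1.37 over the 5 chromosome structure genes and -1.02 over the 5 kinesins, but 0.34 over the 3 genes of the chromosomal passenger complex. That 0.34 is the value of BIRC5, whose probe sets disagreed in sign. In limma's fit over both lines, with the line as a block, 6 of the 41 members above the filter on mean level fell at an adjusted p under 0.05 and 0 rose, while 2.43% of the 6787 genes tested fell and 1.15% rose. The 6 were ASPM, HMMR, CENPF, BUB1B, SMC4 and SMC2. At an unadjusted p under 0.05, 18 members were lower (14% of all genes) and 0 higher (9.05%), and at 2-fold 15 were lower (7.91%) and 0 higher (4.74%). The median member differed by -0.63 and the median of all genes by -0.02. CENPE lay below the filter. As the RNA came from bulk cells, fewer cells in mitosis and less transcript per cell cannot be told apart.

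Among spindle proteins, ASPM, which focuses microtubules at the spindle poles, showed the largest difference of the 42. ASPM read 248 in untreated and 37.3 in antibody-treated HT29, and 424 and 66.6 in Colo357. Both antibody arrays lay far below both untreated arrays, a 5.56-fold fall (log2 difference -2.47, SE 0.32, limma adjusted p = 0.0107). HMMR is a hyaluronan receptor that also organises spindle microtubules. HMMR read 585 in untreated and 206 in antibody-treated HT29, and 546 and 113 in Colo357. The antibody arrays were again the lower ones in each line, and HMMR fell 3.53-fold (log2 difference -1.82, SE 0.34, limma adjusted p = 0.0272). The other 3 of this role, TPX2, PRC1 and NUSAP1, differed by -0.83, -0.63 and -0.47 on the log2 scale and did not pass.

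All 5 chromosome structure genes were at least 2-fold lower over the lines, and the condensin cores SMC2 and SMC4 passed. Condensin is the ring complex that compacts mitotic chromosomes. SMC4 read 489 in untreated and 152 in antibody-treated HT29, and 1084 and 240.2 in Colo357. SMC2 read 156 in untreated and 64.8 in antibody-treated HT29, and 183 and 53.4 in Colo357. For each gene the antibody arrays lay below both untreated arrays, a 3.66-fold fall of SMC4 (log2 difference -1.87, SE 0.33, limma adjusted p = 0.0256) and a 2.6-fold fall of SMC2 (log2 difference -1.38, SE 0.33, limma adjusted p = 0.0496). NCAPG, a condensin subunit, differed by -1.15, TOP2A, the topoisomerase that untangles sister chromatids, by -1.24, and MKI67, the Ki-67 proliferation marker that coats mitotic chromosomes, by -1.37. These 3 did not pass, with limma adjusted p of 0.122, 0.08 and 0.0686.

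At the kinetochore, CENPF, which links kinetochores to microtubule motors, fell 3.69-fold (log2 difference -1.88, SE 0.36, limma adjusted p = 0.0284). CENPF read 301 in untreated and 113 in antibody-treated HT29, and 542 and 92.3 in Colo357. In Colo357 its level with the antibody was below that of either HT29 array. CENPE, the kinetochore motor below the filter, read 53.6 and 9.6 in HT29 and 56.9 and 14.5 in Colo357, lower in each line but dim on every array. NDC80, which grips the microtubule, differed by 0.05 in HT29 and -1.83 in Colo357. CENPA, the histone that marks centromeres, differed by -0.32 and ZWINT, which recruits the checkpoint, by 0.37, and neither passed.

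In the spindle checkpoint, BUB1B, the BubR1 protein that restrains CDC20, fell 2.76-fold (log2 difference -1.46, SE 0.33, limma adjusted p = 0.0434). BUB1B read 676 in untreated and 286 in antibody-treated HT29, and 883 and 261 in Colo357. The lower level in both treated arrays was shared by the checkpoint kinases TTK (-1.11) and BUB1 (-0.82), which did not pass. BUB3, the binding partner of BUB1 and BUB1B, differed by -0.37. MAD2L1, the MAD2 protein that binds CDC20, stood the other way. MAD2L1 read 889 in untreated and 1206 in antibody-treated HT29, and 506 and 734 in Colo357. Both treated arrays were the higher ones of their line, and the difference did not pass (log2 difference 0.48, SE 0.32, limma adjusted p = 0.396).

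Of the 5 kinesins, KIF11, which pushes the spindle poles apart, differed by -1.32, KIF20A and KIF23, motors of the central spindle, by -1.23 and -1.02, and KIF4A by -0.65. KIF11 read 243 in untreated and 134 in antibody-treated HT29, and 380.5 and 101 in Colo357. KIF2C, which takes microtubules apart at kinetochores, was the exception at 0.44, higher in both lines. None of the 5 passed, with limma adjusted p from 0.0678 to 0.438. Of the mitotic kinases, PLK1, which acts from mitotic entry to cytokinesis, differed by -1.16 (limma adjusted p = 0.0711), AURKA, the spindle pole kinase, by -0.63 and NEK2, which splits centrosomes, by -0.17.

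The members with higher values after the antibody were few, and none passed the test. AURKB, the kinase of the chromosomal passenger complex that corrects wrong attachments, had the largest difference upward. AURKB read 422 in untreated and 663 in antibody-treated HT29, and 495 and 863 in Colo357. Both treated arrays lay above both untreated arrays (log2 difference 0.72, SE 0.32, limma adjusted p = 0.217). Its partners BIRC5, which is survivin, and CDCA8, which is borealin, differed by 0.34 and 0.03. The BIRC5 value depended on the probe set, since the dimmer ones differed by -0.28 and 0.45. CDC20, the activator of the anaphase-promoting complex, did not share this direction with the antibody: it read 1900.0 in untreated and 1041 in antibody-treated HT29, and 1597 and 769 in Colo357. Its treated arrays were the lower ones in both lines, 1.94-fold (log2 difference -0.95, SE 0.32, limma adjusted p = 0.117). UBE2C, the ubiquitin-conjugating enzyme of the same complex, differed by 0.48, and PTTG1, the securin it destroys, by -0.01.

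The cyclin and CDK1 group held no gene that passed. CDK1 read 1023 in untreated and 1902 in antibody-treated HT29, and 1296 and 1342 in Colo357, so it was higher in treated HT29 and nearly level in Colo357. CKS2, the small subunit that docks CDK1 on its substrates, read 3044 and 3189.7 in HT29 but 1381 and 3308 in Colo357. CCNA2, the S and G2 phase cyclin, differed by -1.05, while the mitotic cyclins CCNB1 and CCNB2 differed by -0.56 and -0.28. The phosphatases that switch CDK1 on, CDC25B and CDC25C, differed by -0.03 and -0.32, and FOXM1, the transcription factor of the mitotic wave, by -0.12.

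These calls rest on 1 residual degree of freedom, and the labels do not say that the arrays came from separate cultures, so the p-values measure only the spread between these samples. Of the 6 members called, 0 passed after quantile scaling, without the filter, without the line as a block or in one fit of all 8 arrays, and 2 (ASPM and HMMR) passed with the mean of all probe sets, where CENPF lay below the filter. The differences themselves kept their direction under every alternative run.

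Between the lines, the treated and untreated arrays stood further apart in Colo357. In HT29 the median member above the filter differed by -0.36 and all genes by -0.05; in Colo357 these values were -0.90 and -0.03. At 2-fold, 7 of 41 members were lower in HT29 (7.31% of all genes) and 0 higher (5.04%). All genes at 2-fold in HT29 split into 337 higher and 489 lower, and into 394 and 341 after quantile scaling. In Colo357 18 of 41 were lower (12.7%) and 1, CKS2, was higher (10.5%). The 7 members 2-fold lower in HT29, namely PLK1, BUB1B, CENPF, ASPM, HMMR, SMC2 and SMC4, were also 2-fold lower in Colo357, and 3.92% of all genes were 2-fold lower in both. Members lower in both lines numbered 28 of 41 (35.9% of all genes), and 8 were higher in both (32.1%), of which CKS2 in HT29 and CDK1 in Colo357 turned to just below 0 after quantile scaling. Of the 28, NUSAP1 and BUB3 depended on the probe set in HT29. A dimmer NUSAP1 one differed there by 0.04, and dimmer BUB3 ones by 0.17, 0.05 and -0.11. No member was 2-fold higher in both lines (1.64% of all genes). The 4 genes FOXM1, NEK2, CDCA8 and NDC80 were higher in treated HT29 and lower in treated Colo357 (15.3% of all genes), and PTTG1 alone had the opposite order (16.5%). FOXM1 read 778 in untreated and 1003 in antibody-treated HT29, and 834 and 547 in Colo357. The antibody-by-line term, fitted in limma over all 8 arrays, passed for 0 members and 0 genes after adjustment and for 0 members and 67 genes at an unadjusted p under 0.05, so no member was shown to differ between the lines. Its spread rests on the pair of 2-vector clones alone.

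**Figure D2:**
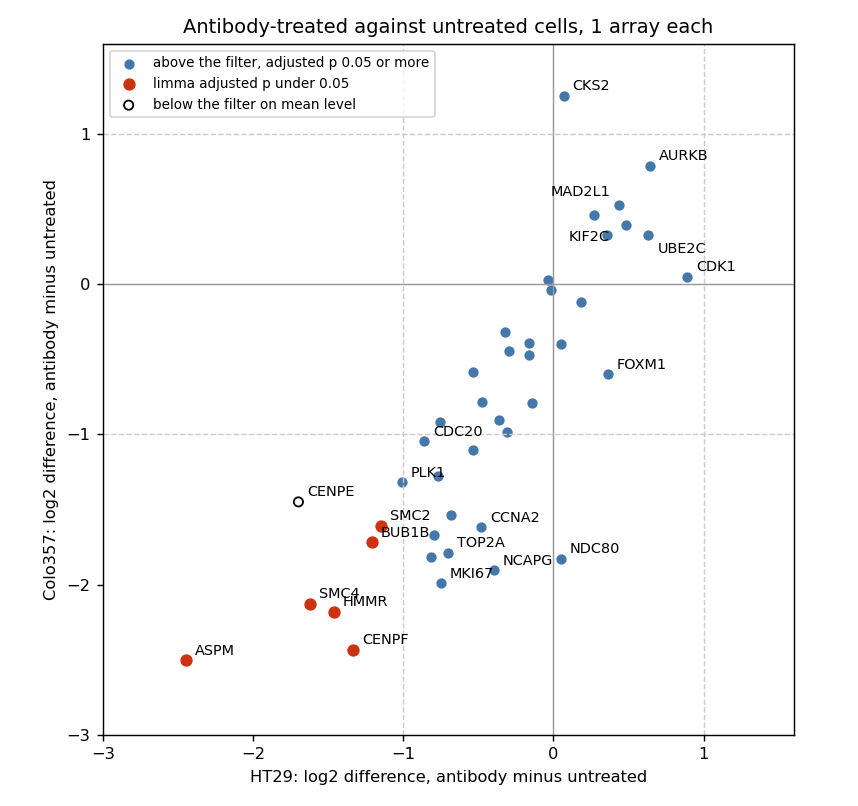
Log2 difference between the antibody-treated and the untreated array of each line, HT29 on the x axis and Colo357 on the y axis, 1 point per gene; red points passed limma's adjusted test over both lines, and the open point lay below the filter on mean level. Dashed lines mark 2-fold. The 6 red points lie at the lower left, and AURKB, KIF2C, UBE2C and MAD2L1 lie above 0 in both lines.

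Averaged over treatment, 2 of the 41 members differed between the lines. In the same limma fit, 740 genes (10.9%) were higher and 586 (8.63%) lower in Colo357, but of the 41 members only TOP2A was higher and only PLK1 lower at an adjusted p under 0.05. TOP2A read 394 in untreated and 239 in antibody-treated HT29, and 1605 and 458 in Colo357. Colo357 was higher with and without the antibody. The difference averaged 2.74-fold (log2 difference 1.45, SE 0.36, limma adjusted p = 0.0184), and the treated Colo357 array lay closer to HT29 than the untreated one. PLK1 read 1617 in untreated and 799 in antibody-treated HT29, and 856 and 337 in Colo357. PLK1 was 2.09-fold lower in Colo357 (log2 difference -1.07, SE 0.33, limma adjusted p = 0.0433). Neither passed after quantile scaling, without the filter or in one fit of all 8 arrays.

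In the CD24 shRNA clones, several spindle, kinesin and chromosome genes read lower than in both controls, while AURKB and CDC20 read higher. No gene of 6756 passed limma's adjusted test for the 3 clones against parental HT29 and the GFP clone (0% in either direction), and so no member did; the smallest adjusted p of any gene was 0.208. At an unadjusted p under 0.05, 11 of 40 members were lower (13.5% of all genes) and 2 higher (6.38%), namely AURKB and CDC20. At 2-fold, 15 were lower (16.7%) and the same 2 higher (7.15%). All 3 clones lay below both controls for 12 members (19.8% of all genes) and above both for 6 (20.1%), which were AURKB, CDC20, CDC25B, CDC25C, CDCA8 and KIF2C. The share above both is under that of all genes. For CDC25C and KIF2C the order depended on the probe set. A dimmer CDC25C one above the array median differed by -0.41. With a dimmer KIF2C one, c.G read 586 and parental cells 655. The median member differed by -0.29 and the median of all genes by 0.04. CENPE and SMC2 lay below the filter.

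AURKB and CDC20 both act at the metaphase to anaphase step. AURKB read 422 in parental cells and 377 in the GFP clone, against 815 in c.833, 1175 in c.G and 636 in c.E. All 3 clones lay above both controls, highest in c.G, a 2.1-fold difference (log2 difference 1.07, SE 0.40, limma adjusted p = 0.223). CDC20 read 1900.0 in parental cells and 1002 in the GFP clone, against 2373 in c.833, 3677 in c.G and 2464 in c.E. Here too c.G was the highest and every clone exceeded both controls, 2.01-fold on average (log2 difference 1.01, SE 0.43, limma adjusted p = 0.249). The distance was the larger from the GFP clone, which read below the parental line. Against the parental array alone, the 3 clones differed by 0.55 for CDC20 and 0.99 for AURKB on the log2 scale, and against the GFP clone alone by 1.46 and 1.15. Clone c.G was also the array with the ACTB ratio of 1.78. Without c.G the log2 differences from both controls were 0.84 for AURKB and 0.80 for CDC20, each under 2-fold.

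The other passenger proteins and the activators of mitosis gave mixed values. BIRC5 read 867 in parental cells and 529 in the GFP clone, against 1458 in c.833, 1259 in c.G and 805 in c.E. Clone c.E lay below the parental array, so the clones overlapped the controls (log2 difference 0.74, SE 0.43, limma adjusted p = 0.349). CDCA8 differed by 0.51 and CDC25B by 0.79, each with all 3 clones above both controls. CDC25B read 1001 in parental cells and 801 in the GFP clone, against 1514 in c.833, 2014 in c.G and 1235 in c.E. CCNB1 read 2785 in parental cells and 911 in the GFP clone, against 2621 in c.833, 2781 in c.G and 2149.6 in c.E. CCNB1 in the clones was near the parental level and above that of the GFP clone, and its difference of 0.65 became -0.15 without the GFP clone. FOXM1 read 778 in parental cells and 390.1 in the GFP clone, against 814 in c.833, 1174 in c.G and 725 in c.E. As with CCNB1, its low array was the GFP clone.

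CDK1 was lower by the second largest margin. CDK1 read 1023 in parental cells and 515 in the GFP clone, against 46.9 in c.833, 86.6 in c.G and 451 in c.E. Clones c.833 and c.G lay far below every other array (log2 difference over the 3 clones -2.43, SE 0.82, limma adjusted p = 0.214). Clone c.E lay just below the GFP clone and further below the parental line, at -1.16. The cyclins that partner CDK1 were unlike each other, CCNA2 at -1.57 and CCNB2 at -0.03. CCNA2 read 914 in parental cells and 258 in the GFP clone, against 158 in c.833, 76 in c.G and 318 in c.E. As for CDK1, c.833 and c.G lay below both controls, while c.E lay between them. CKS2 differed by -0.07 and CDC25C by 0.38.

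The genes of spindle proteins read lower over the clones, ASPM the most. ASPM read 248 in parental cells and 119 in the GFP clone, against 9.1 in c.833, 4.2 in c.G and 65.6 in c.E. In c.833 and c.G the signal was near the floor of the arrays, where the added 10 sets the size of the difference (log2 difference -2.74, SE 0.72, limma adjusted p = 0.208). HMMR read 585 in parental cells and 156 in the GFP clone, against 33.3 in c.833, 48.2 in c.G and 102 in c.E. All 3 clones lay below the GFP clone, which itself lay below the parental line (log2 difference -2.26, SE 0.63, limma adjusted p = 0.208). NUSAP1 read 724 in parental cells and 608 in the GFP clone, against 259.6 in c.833, 184 in c.G and 549.9 in c.E. NUSAP1, which bundles spindle microtubules, had c.E just below the GFP clone, at a difference of -1.13, while TPX2 and PRC1, other microtubule binding proteins, differed by -0.23 and -0.13.

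Of the kinesins, KIF23 and KIF11 were lower in all 3 clones. KIF23 read 534 in parental cells and 183 in the GFP clone, against 39.4 in c.833, 19.8 in c.G and 164 in c.E. KIF11 read 243 in parental cells and 145 in the GFP clone, against 18 in c.833, 23.6 in c.G and 124 in c.E. For each the distance was large in c.833 and c.G. Clone c.E lay close to the GFP clone but further from the parental line, at -1.65 for KIF23 and -0.92 for KIF11. Over the 3 clones KIF23 differed by -2.35 and KIF11 by -1.98 (limma adjusted p = 0.214 for both). KIF20A, KIF4A and KIF2C differed by -0.21, -0.25 and 0.38.

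The 4 chromosome structure genes above the filter had a median of -1.67, and 3 of them were 2-fold lower. TOP2A read 394 in parental cells and 492 in the GFP clone, against 79.5 in c.833, 56.5 in c.G and 215 in c.E. SMC4 read 489 in parental cells and 250.2 in the GFP clone, against 38.7 in c.833, 58.1 in c.G and 201 in c.E. All 3 clones lay below both controls, TOP2A at -2.03 and SMC4 at -2.02 (limma adjusted p = 0.208 and 0.213). MKI67 read 729 in parental cells and 225 in the GFP clone, against 207 in c.833, 141 in c.G and 379.6 in c.E. MKI67 did not separate the groups, since the GFP clone read below c.E and close to c.833. SMC2, below the filter, read 156 and 97.5 in the controls and 0.6, 24.2 and 57.5 in the clones.

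At the kinetochore and in the checkpoint the pattern held for some genes. CENPF read 301 in parental cells and 324 in the GFP clone, against 50.6 in c.833, 79.3 in c.G and 152 in c.E. The clones were lower than both controls (log2 difference -1.75, SE 0.47, limma adjusted p = 0.208), as they were for TTK (-1.72) and MAD2L1 (-1.48). BUB1B read 676 in parental cells and 501 in the GFP clone, against 171 in c.833, 208 in c.G and 688 in c.E. BUB1B was low in c.833 and c.G alone, since c.E read slightly above the parental array. NDC80, ZWINT and CENPA differed by -1.30, -0.51 and -0.29, BUB1 by -0.97 and BUB3 by 0.14. The BUB3 value depended on the probe set, since 2 dimmer ones above the array median differed by -1.49 and -0.87. Among the kinases, NEK2 differed by -1.38 with all clones below both controls, and PLK1 and AURKA by 0.07 and -0.28.

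**Figure D3:**
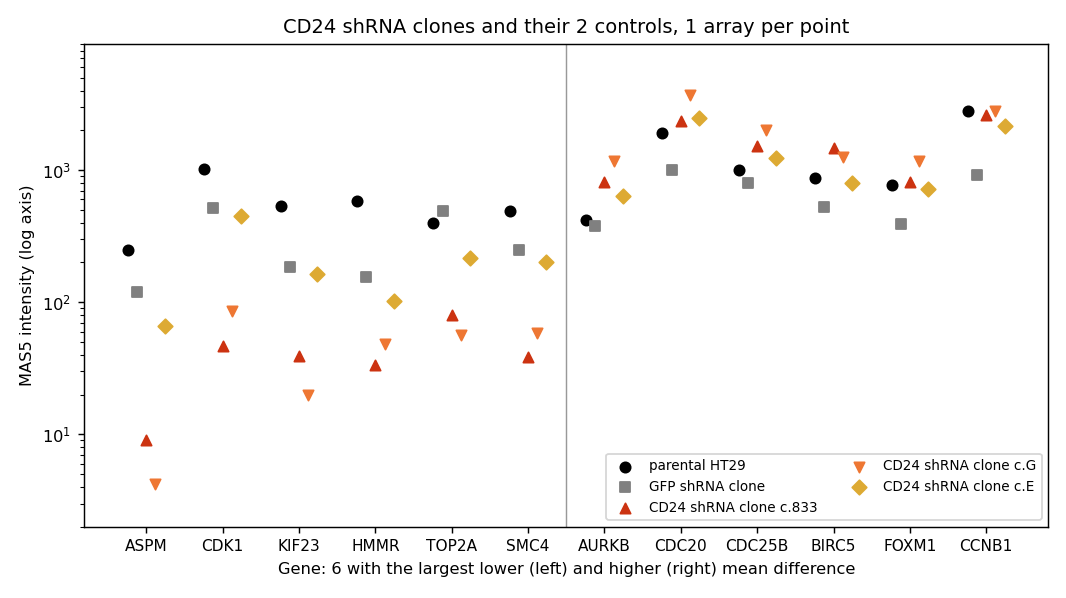
MAS5 intensity (log axis) of the 6 genes with the largest lower and the 6 with the largest higher mean difference in the CD24 shRNA clones, 1 point per array; black and grey are the controls. On the left c.833 and c.G lie far below the controls and c.E closer to them, and on the right all 3 clones lie above both controls only for AURKB, CDC20 and CDC25B.

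The counts depended on the control used. Against the GFP clone alone, 6 of 38 members were 2-fold higher (5.95% of all genes), namely CCNB1, FOXM1, PLK1, AURKB, BIRC5 and CDC20, and 9 were 2-fold lower (18%). All 3 clones lay above the GFP clone for 17 members (32.2%) and below it for 10 (34%), and the median member differed by 0.17. Against parental HT29 alone the median of 39 members was -0.97, with 18 lower at 2-fold (17.1%) and 0 higher (14.8%). The clones also differed among themselves. Without c.E, 587 of 6760 genes passed limma's adjusted test, 578 of them lower. With them passed 8 of 40 members, all lower, ASPM, CDK1, KIF23, TOP2A and SMC4 among them. Without c.G, 15 of 41 members were 2-fold lower (13.3% of all genes) and 0 higher (5.36%).

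The GFP clone, which carries no CD24 shRNA, also read lower than the parental line for most of the genes. Of 41 members, 38 were lower in the GFP clone (45.4% of all genes). At 2-fold 13 were lower (7.06%) and 0 higher (14.4%). PLK1 read 1617 in parental cells and 367 in the GFP clone, against 786 in c.833, 855 in c.G and 799 in c.E. PLK1 was lowest in the GFP clone, and at -2.11 it had the largest log2 difference from the parental array of the members there. Clone c.833 had 21 of 40 members 2-fold lower than the parental line (22.7% of all genes) and 0 higher (16.6%), c.G had 22 of 41 lower (23.8%) and 2 higher (17.8%), and c.E had 10 of 41 lower (6.95%) and 0 higher (10.3%). These comparisons have 1 array on each side and no test.

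The 4 clones were then compared with the single parental array, with the GFP clone counted as a clone. All 4 lay below the parental array for 26 of 40 members (22.8% of all genes) and above it for 0 (30.3%), and 20 members were 2-fold lower (12.7%) and 0 higher (12.8%). In limma's adjusted test 12 genes rose (0.178%) and 2 fell (0.0296%), and 0 members passed. At an unadjusted p under 0.05, 9 members were lower (2.77% of all genes) and 0 higher (9.16%). These were CCNA2, AURKA, TTK, MAD2L1, NDC80, ZWINT, KIF23, HMMR and MKI67. The largest differences were those of HMMR (-2.85), KIF23 (-2.70), ASPM (-2.67), CDK1 (-2.44), CCNA2 (-2.29) and TTK (-2.20). TTK read 188 in parental cells and 62.4 in the GFP clone, against 4.8 in c.833, 38.2 in c.G and 56.8 in c.E. ZWINT read 2345 in parental cells and 803 in the GFP clone, against 782 in c.833, 810.3 in c.G and 1392 in c.E. In each case the parental array was the highest of the 5. AURKB stood at 0.70, and CDC20 at 0.18 with all 4 clones but at -0.07 without c.G. The median member differed by -0.997 and the median of all genes by 0.02.

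**Figure D4:**
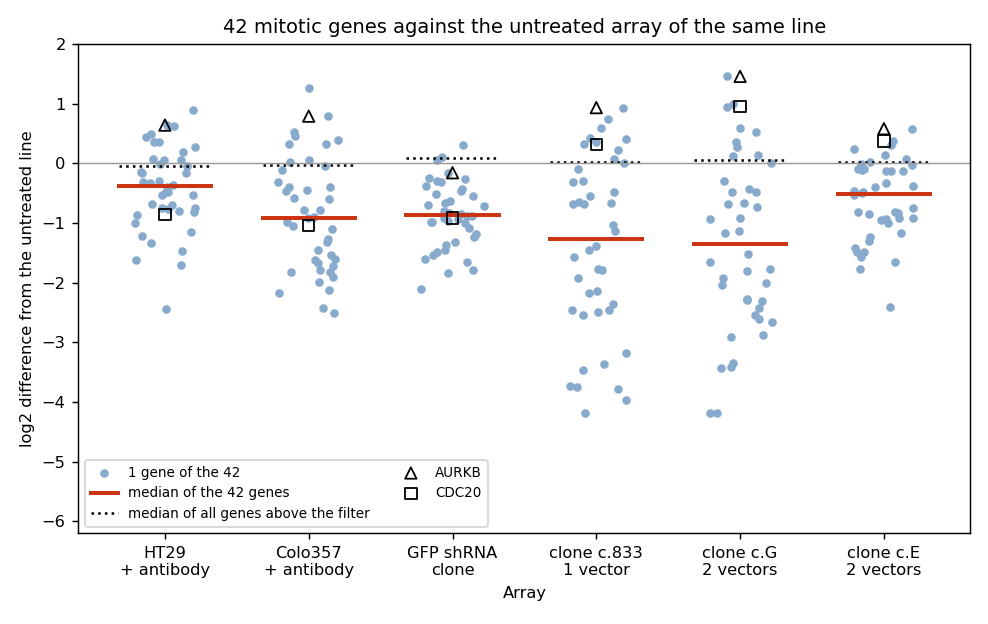
Log2 difference of each of the 42 genes (points) between 6 arrays and the untreated array of the same line; red bars are medians of the 42 genes, dotted bars medians of all genes above the filter, and the open triangle and square mark AURKB and CDC20. The medians of the 42 genes are -0.38, -0.91, -0.86, -1.26, -1.34 and -0.51 from left to right, and AURKB lies above 0 on every array but the GFP clone.

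The 2-vector clones were set against the 1-vector clone with no test, because that side has 1 array. With c.833 outside the range of the pair and a difference of 2-fold or more, 5 of 40 members were higher with 2 vectors (6.31% of all genes) and 0 lower (3.24%). They were CDK1, TTK, BUB1B, KIF11 and SMC4. In each of them c.E read above c.G, so the 2-vector clones differed from each other as well. For CDK1 the log2 difference was 1.89, and for BUB1B 1.10.

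The antibody in Colo357 and the CD24 shRNA clones share no array, so their members could be set side by side; antibody-treated HT29 and the clones share the parental array as control and were not compared in this way. Of the 40 members above the filter in both, 11 were 2-fold lower in each (5.57% of 6171 genes), namely CCNA2, TTK, CENPF, NDC80, KIF11, KIF23, ASPM, HMMR, TOP2A, SMC4 and NCAPG. They were 11 of the 18 called at 2-fold in Colo357 and of the 15 called in the clones. No member was 2-fold higher in both (2.03%). Members lower in both numbered 23 (32.5%), and 5 were higher in both (33.2%), AURKB, BIRC5, KIF2C, UBE2C and PTTG1. A dimmer BIRC5 probe set differed by -0.14 with the antibody in Colo357. CDC20 was among the members on opposite sides, at -1.05 with the antibody in Colo357 and 1.01 in the clones. CDK1 was nearly level in Colo357, at 0.05, and stood at -2.43 in the clones. Its other probe sets differed by -0.15 and -0.02 in Colo357.

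Members with dim probe sets differed more than those with bright ones. Split at the median of their mean log2 value, 8.76, the brighter members had a median difference of -0.03 with the antibody and 0.14 in the CD24 shRNA clones, and the dimmer ones -1.19 and -1.38. Genes of the same ranges of brightness had medians of 0.07 and -0.08 with the antibody and 0.24 and -0.11 in the clones. AURKB and CDC20 are among the brighter members, and ASPM, HMMR and CENPF among the dimmer. That mean includes the treated and clone arrays, so a member's own fall moved it towards the dimmer side. The split is therefore not independent of the differences set against it. HMMR stood above the split in the untreated lines, at 9.22 in HT29 and 9.12 in Colo357. Other dimmer members did so too, such as CCNA2 (9.85), MKI67 (9.53) and BUB1B (9.42) in untreated HT29. TOP2A (10.66) and SMC4 (10.09) did so in untreated Colo357. The part of signal strength in these differences was not tested. Where a member had further probe sets above the median, they mostly had the same direction. Of 15 such members, all probe sets had the same sign in 14 with the antibody, in 13 in the CD24 shRNA clones and in 12 in the 4 clones, and in no case did 2 probe sets oppose each other at 2-fold.

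Beyond the 42 genes, 6 further lists held 105 genes of mitosis and of related families such as the kinesins, KIF5B and KIF3A among them. Of these, 90 had a value. With the antibody, 8 of the 79 above the filter fell (2.43% of all genes) and 0 rose (1.15%) in limma's adjusted test, 25 were lower (14%) and 3 higher (9.05%) at an unadjusted p under 0.05, and the median difference was -0.44. In the CD24 shRNA clones 23 of 75 were 2-fold lower (16.7% of all genes) and 2 higher (7.15%), with a median of -0.42. Against the parental line the 4 clones stood lower for 61 of 75 (49% of all genes), at -0.74. The lists were not alike with the antibody. Of 19 further kinetochore and checkpoint genes, 12 were higher and 7 lower (51.2% of all genes were lower), at a median of 0.18. Subunits and regulators of the anaphase-promoting complex split into 5 higher and 5 lower, at -0.11. Medians of the remaining lists ran from -0.96 to -0.33. The cohesin and condensin list held 5 of the 8. NIPBL, which loads the cohesin ring that holds sister chromatids together, differed most. NIPBL read 204 in untreated and 47.1 in antibody-treated HT29, and 292 and 55.9 in Colo357 (log2 difference -2.05, SE 0.33, limma adjusted p = 0.0198). The cohesin genes STAG1, PDS5A, PDS5B and SMC3 fell 3.38-fold, 3.29-fold, 2.65-fold and 2.72-fold. In the CD24 shRNA clones 9 of 15 genes of this list were 2-fold lower (16.7% of all genes) and 0 higher (7.15%), STAG2 and PDS5A the most. STAG2 read 534 in parental cells and 534 in the GFP clone, against 34.8 in c.833, 42.7 in c.G and 209 in c.E. Clones c.833 and c.G were far below both controls, which read alike. The other 3 of the 8 were DLGAP5, a spindle protein (-1.53), KNTC1, which brings dynein to kinetochores (-1.63), and DEPDC1 (-1.67).

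Genes of DNA replication and the G1/S transition, the earlier wave of the cell cycle, gave another picture with the antibody. Of 45 above the filter, 0 passed limma's adjusted test, 4 were higher (9.05% of all genes) and 2 lower (14%) at an unadjusted p under 0.05, 26 were higher and 19 lower in all (51.2% of all genes were lower), and the median difference was 0.11. In the CD24 shRNA clones their median was 0.07, with 2 of 43 lower (16.7%) and 2 higher (7.15%) at 2-fold. Against the parental line the 4 clones were lower for 37 of 43 (49% of all genes), at a median of -0.60, and in the GFP clone alone 42 of 44 were lower (45.4%), at -1.02. No test of the difference between the lists was made.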

How the data were processed

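RNA from 8 cell samples was hybridised to Affymetrix human GeneChip arrays. The deposited table holds linear intensities of 22277 probe sets made with MAS5, per the submitters' processing notes in a version the sources used here do not give. Detection calls were not used. No further scaling was applied. A platform annotation gave 1 symbol to 19064 probe sets, updated through Entrez for 19052, and genes took the probe set with the highest mean log2 value. The members, lists and naming rule (every member called, the 6 largest per direction, AURKB and CDC20) were chosen with earlier results of these data known.

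Values were analysed as log2(intensity + 10), computed here from the deposited intensities, which understates differences of dim genes. A comparison tested genes whose mean over its arrays exceeded that of the median probe set, controls aside. Tests were limma 3.58.1 in R 4.3.3 (lmFit, eBayes), two-sided, with Benjamini-Hochberg adjustment over all genes tested. SE is limma's moderated SE. Comparisons of 1 array with 1 array have no test. The fits were tested on simulated data. Motifs were searched in RefSeq promoters of GRCh38.p14. Alternatives were quantile scaling, pseudocounts of 1 and 32, no filter, other probe set rules, all 8 arrays in one fit, no line block, and leaving out each array. The antibody-by-line term was added after seeing the data. The number of arrays limits the precision.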

Additional observations from a re-analysis of the deposited data

How the results depend on the processing

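The antibody fit pairs the treated and untreated array of each line, with the line as the block. No other pairing was possible because the labels give the groups no shared replicate numbers. For the antibody over both lines, limma called 243 genes and 6 members. These counts were 0 and 0 after quantile scaling, without the filter and without the line block, 3 and 0 with all 8 arrays in one fit, and 68 and 2 with the mean of probe sets, and a pseudocount of 1 gave 135 genes. Colo357 against HT29 had 2 members called, which became 0 after quantile scaling, without the filter and with all 8 arrays (724 genes in place of 1326) and 1 with a pseudocount of 1. The CD24 shRNA comparison, with 0 calls, gave 175 genes and 1 member (HMMR) with all 8 arrays, and 0 to 587 genes and 0 to 8 members when an array was left out, the most without c.E. Its member median moved from -0.29 to between -0.97 without the GFP clone and 0.17 without the parental array. The 4 clones against the parental array gave 14 genes, 22 after quantile scaling, 30 with a pseudocount of 1, 9 without the filter and 0 to 85 when a clone was left out. Without the filter, 1558 genes in HT29 and 2422 in Colo357 differed 2-fold with the antibody, against 826 and 1587. Some differences changed sign: CCNB1 in the CD24 shRNA clones ran from -0.15 to 1.45 and, in the 4 clones, CDC20 from -0.075 to 0.55 and BIRC5 from -0.092 to 0.39 as arrays were left out. With the mean of probe sets CDC25C and BIRC5 in the 4 clones were -0.17 each and CDK1 in antibody-treated Colo357 was -0.039. After quantile scaling CKS2 in antibody-treated HT29 was -0.011 and CDK1 in Colo357 -0.0028. Of the single-gene values under alternatives, 557 kept direction and call, 41 lost a call or 2-fold size, 6 gained one and 9 changed sign. The cause was not tested. With 1 array per condition, clone and vector, or antibody and culture, cannot be told apart.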

Other observations

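Among 28 regulators of mitotic genes with a value, 24 lay above the filter in the antibody comparison, and 1 rose (1.15% of all genes) and 1 fell (2.43%) in limma's adjusted test. CDKN1A encodes p21, the inhibitor of cyclin-dependent kinases. CDKN1A read 63.1 in untreated and 377 in antibody-treated HT29, 342 and 2687 in Colo357, 296 in the GFP clone, and 477, 1017 and 505 in clones c.833, c.G and c.E. It was lowest in untreated HT29 and higher in the treated array of each line, 6.37-fold over both (log2 difference 2.67, SE 0.33, limma adjusted p = 0.0101). Every clone, the GFP clone included, also read above the parental array. CCNG1, another gene known to respond to p53, fell 3.71-fold (log2 difference -1.89, SE 0.41, limma adjusted p = 0.0382). In each line its treated array was the lower one, at log2 differences of -1.10 in HT29 and -2.69 in Colo357. GADD45A, a further gene known to respond to p53, read 3.03-fold higher over both lines but did not pass (limma adjusted p = 0.105), at log2 differences of 0.30 in HT29 and 2.90 in Colo357.

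MYBL2 encodes B-MYB, the activator that works through the CHR. MYBL2 read 1465 in untreated and 2107 in antibody-treated HT29, 1141 and 1030.4 in Colo357, 225 in the GFP clone, and 778, 1384 and 766 in clones c.833, c.G and c.E. The GFP clone was the lowest of the 8 arrays by a wide margin. Of the pocket proteins that keep cell cycle genes silent, RBL2 (p130) differed by -0.58 with the antibody and -2.19 in the CD24 shRNA clones, and RB1 by -0.66 and -1.37. None of these 4 differences passed, with limma adjusted p from 0.208 to 0.313. MYBL2, RBL2 and RB1 were chosen after their values were seen.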
